A study of Danio rerio with 6 samples.

Results

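The genes described here copy DNA in S phase: the 6 subunits of the MCM2 to MCM7 helicase, the sliding clamp pcna, the RPA subunit rpa2, and the ribonucleotide reductase genes rrm1 and rrm2. They were taken by symbol: 10 symbols, looked up by Ensembl identifier with case ignored, matched 12 of the 32520 genes in the deposited tables, because MCM6 and RRM2 each named 2 genes. The copies are mcm6 on chromosome 6 and mcm6l on chromosome 2, and RRM2 on chromosome 19 and rrm2l on chromosome 20, the names mcm6l and rrm2l being those of the RefSeq gene table. Levels are in TPM, which scales each gene's reads by transcript length and by the library's total. A filter of at least 1 TPM in 3 or more libraries was passed by 11 of the 12, all except mcm6l, and by 20330 genes in all.

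Polyadenylated RNA came from whole, untreated zebrafish larvae at 5 days post fertilization, kept in a light-dark cycle. Each RNA sample was a pool of 30 larvae, with 3 pools labelled (stim2a;stim2b)+/+, wild type at both genes, and 3 labelled (stim2a;stim2b)-/-, mutant at both. STIM2 proteins sense the calcium store of the endoplasmic reticulum and call for its refilling. The mutant alleles and how they were made are not given in the labels. The labels name no clutch or day for any pool, and the p-values given below therefore speak of the variation among these 6 pools, part of which may be technical.

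The RNA of the targeted genes ran against the labels. The gene stim2a stood at 0.329, 0.252 and 0.403 TPM in replicates 1 to 3 under the label +/+ and 1.31, 1.41 and 1.20 TPM under -/-, and stim2b at 0.542, 0.475 and 0.722 TPM in replicates 1 to 3 under the label +/+ and 1.52, 1.34 and 1.85 TPM under -/-. The groups did not overlap for either gene. Both genes reached 1 TPM under the label -/- only, so they pass a filter on low values through that label alone, and no test of them is given. The deposited names of the libraries labelled -/- carry wt and those of the libraries labelled +/+ carry ab, and the labels explain neither. If wt stands for wild type, these names run against the labels too. The groups are therefore called libraries labelled +/+ and libraries labelled -/-, and every direction below follows the labels. Absolute depth is not known from TPM, and the ratio of coverage to FPKM, which is proportional to the bases aligned, ranged from 4.64 to 5.93 over the 6 libraries. The 2 replicate 3 libraries deviated together from their group means (r = 0.478 across genes, each correlating negatively with replicates 1 and 2 of the other label). Deviations from a group mean sum to 0 within a label, so the negative correlations follow in part from the positive one. Log2 fold changes are on the log2(TPM + 0.5) scale, labelled -/- minus labelled +/+. Their median over the tested genes was 0.22, so the main calls are also given for median-rescaled TPM. In it every library was divided by its median gene ratio, and the median log2 fold change became 0.00. Overlap of groups and summed levels are for TPM as deposited unless stated.

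Before S phase, the origin recognition complex with CDC6 and CDT1 loads MCM2 to MCM7 onto DNA as a ring of 6 different subunits, which becomes the active helicase when CDC45 and the GINS complex join it. RPA coats the single strands that the helicase exposes, PCNA holds the polymerases on the template, and ribonucleotide reductase, made of RRM1 and RRM2 subunits, makes the deoxynucleotides. Transcription of many of these genes rises under E2F factors as cells enter the cycle, so their RNA is commonly read as a sign of proliferation. In larvae of this age, known dividing cells include those of the retinal margin, brain ventricles, gut and blood-forming tissue.

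All 6 helicase subunits had higher mean TPM in the libraries labelled -/-, by 1.34-fold for mcm5 to 1.85-fold for mcm7, and 3 of them, mcm3, mcm4 and mcm7, passed the test as higher. With rrm1 and the chromosome 19 RRM2 gene, 5 of the 11 tested members rose and 0 fell at an adjusted p under 0.05 by limma, where 30.8% of all tested genes were called higher and 8.76% lower. The clamp gene pcna averaged 387 ± 8.60 TPM under +/+ and 394 ± 24.3 TPM under -/- (SD, n = 3 each). The genes rpa2 and rrm2l had lower means in the libraries labelled -/-, and both were called lower with median-rescaled TPM. The median log2 fold change was 0.41 over the 11 members and 0.47 over the helicase subunits, and 34.9% of tested genes lay above the members' median. In bulk RNA of whole larvae, fewer cells of a type and less RNA per cell cannot be told apart.

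Under both labels pcna was the highest member, at the 98.4 percentile of mean TPM over all tested genes, followed by RRM2 and rrm1, and mcm2 was the lowest tested member, at the 63.7 percentile. Between them under +/+ came rrm2l at 71.9 ± 6.12, rpa2 at 51.9 ± 3.47, mcm7 at 38.0 ± 10.0 and mcm5 at 23.6 ± 3.12 TPM, then mcm4 at 19.4 ± 3.19, mcm3 at 18.2 ± 3.06 and mcm6 at 17.9 ± 2.37 TPM (SD, n = 3 each). The last 3 differed from each other by less than their SD. Under the label +/+ rrm1 averaged 77.9 ± 9.69 TPM (SD, n = 3), within an SD of rrm2l. In replicate 1 rrm1 lay below rrm2l (69.4 against 75.6 TPM). Under -/- mcm7 averaged 70.2 ± 15.6 TPM, a higher mean than those of rrm2l and rpa2. In replicate 2, however, mcm7 lay below rrm2l (56.0 against 59.6 TPM), and their means lay within the SD of mcm7. Under the same label mcm5 and mcm4 lay within an SD of each other, as did mcm3 and mcm6. All these places are by TPM. From coverage mcm7 lay below the mean of mcm2 to mcm6 in every library, at ratios of 0.576 to 0.902.

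**Figure D1:**
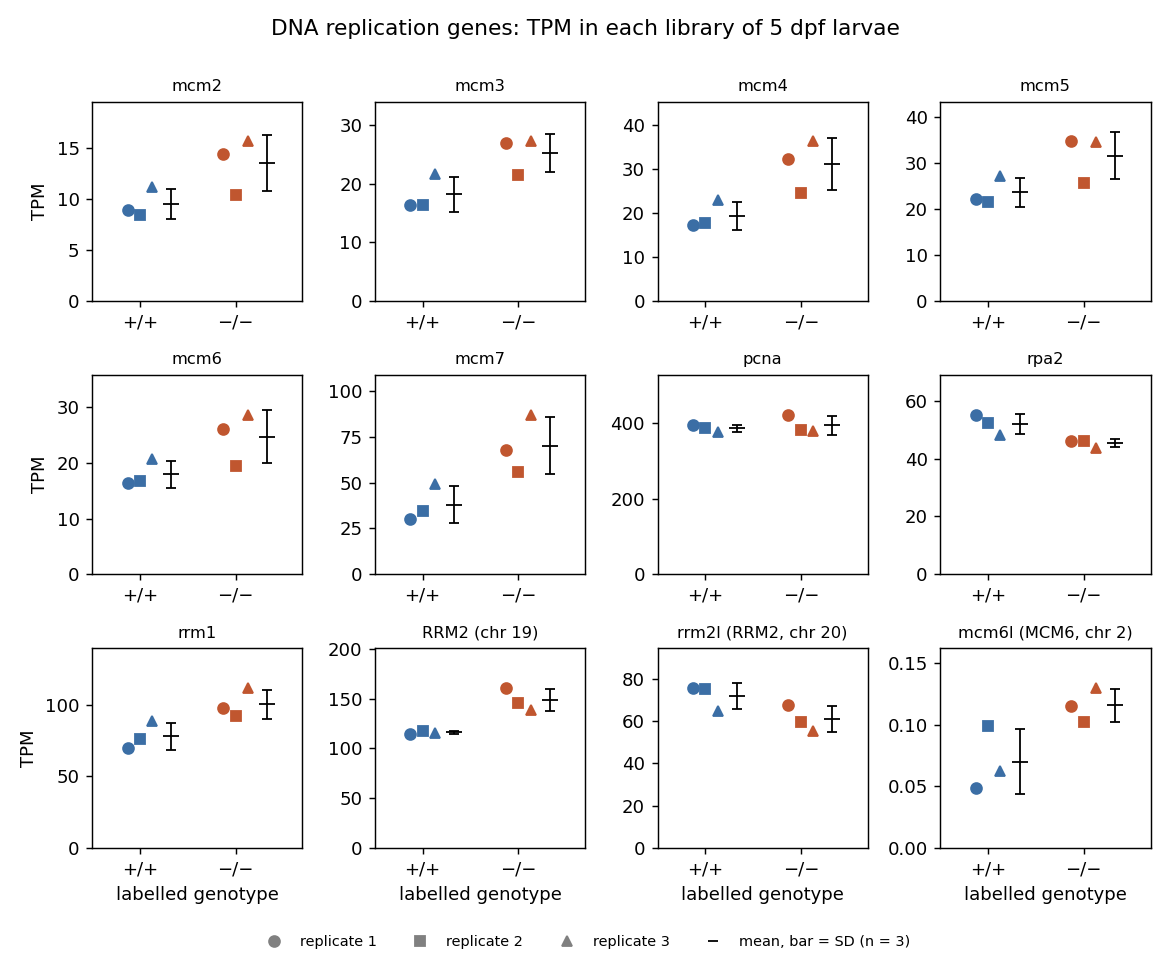
TPM (y axis, from 0) of the 12 replication genes in each library (points, shape by replicate) by labelled genotype (x axis), with the mean and SD (n = 3). In the panels of mcm2 to mcm7 the libraries labelled -/- have the higher means, pcna lies near 387 TPM under both labels, and mcm6l stays at or below 0.129 TPM.

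Among the helicase subunits, mcm7 (ENSDARG00000101180.2, chromosome 14, 94603 to 102022, plus strand) had the largest difference. It stood at 30.3, 34.4 and 49.4 TPM in replicates 1 to 3 under the label +/+ and 67.7, 56.0 and 87.0 TPM under -/-. The groups did not overlap, and the log2 fold change was 0.89 (SE 0.21, limma adjusted p = 0.0197). The subunit mcm4 (ENSDARG00000040041.8, chromosome 24, 35536664 to 35561672, minus strand) stood at 17.4, 17.7 and 23.1 TPM in replicates 1 to 3 under the label +/+ and 32.4, 24.7 and 36.3 TPM under -/-, again without overlap, with a log2 fold change of 0.66 (SE 0.17, limma adjusted p = 0.0224). MCM4, MCM6 and MCM7 form the core that unwinds DNA in vitro. The gene mcm3 (ENSDARG00000024204.7, chromosome 20, 34770197 to 34783743, plus strand) stood at 16.5, 16.4 and 21.7 TPM in replicates 1 to 3 under the label +/+ and 27.0, 21.5 and 27.3 TPM under -/-. Replicate 3 labelled +/+ lay above replicate 2 labelled -/-, so the groups overlapped for mcm3, and its log2 fold change was 0.47 (SE 0.15, limma adjusted p = 0.0378). With median-rescaled TPM the limma adjusted p of mcm3 was 0.0949.

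With TPM as deposited, the remaining subunits missed the threshold by little. For mcm2 (ENSDARG00000102798.3, chromosome 22, 5632029 to 5655680, minus strand), a subunit that also carries histones at the fork, the values were 8.93, 8.47 and 11.2 TPM in replicates 1 to 3 under the label +/+ and 14.4, 10.4 and 15.7 TPM under -/-, a log2 fold change of 0.47 (SE 0.17, limma adjusted p = 0.0611). For mcm5 (ENSDARG00000019507.9, chromosome 3, 25999477 to 26011440, plus strand), whose joint with MCM2 is the gate through which DNA enters the ring, they were 22.1, 21.5 and 27.2 TPM in replicates 1 to 3 under the label +/+ and 34.7, 25.6 and 34.5 TPM under -/-, a log2 fold change of 0.41 (SE 0.15, limma adjusted p = 0.0575). For mcm6 (ENSDARG00000057683.6, chromosome 6, 12968101 to 12985390, plus strand) they were 16.3, 16.8 and 20.7 TPM in replicates 1 to 3 under the label +/+ and 26.0, 19.4 and 28.6 TPM under -/-, a log2 fold change of 0.44 (SE 0.16, limma adjusted p = 0.0590). For each of these 3 genes, replicate 3 labelled +/+ exceeded replicate 2 labelled -/-. With median-rescaled TPM the limma adjusted p was 0.146 for mcm2, 0.225 for mcm5 and 0.172 for mcm6. After the length correction described below it was 0.462, 0.203 and 0.255 in the same order.

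The 6 subunits shared their order among the libraries. All 6 were highest in replicate 3 among the libraries labelled +/+ and lowest in replicate 2 among those labelled -/-, and 5 of the 6 were highest in replicate 3 among the latter, mcm5 being highest in replicate 1. This order is not particular to the helicase. The median gene ratio of the libraries was 0.867, 0.883 and 1.01 in replicates 1 to 3 under +/+. Under -/- it was 1.08, 1.02 and 1.17, so the typical gene had the same highest and lowest libraries. Summed over mcm2 to mcm6, TPM was 81.2, 80.9 and 104 in replicates 1 to 3 under +/+ and 135, 102 and 142 under -/-, so these groups overlapped. The gene rrm1, described below, had the same highest and lowest libraries under each label as mcm4, mcm6 and mcm7, while pcna, rrm2l and rpa2 were highest in replicate 1 and lowest in replicate 3 under the label +/+.

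Within a library, ratios between subunits do not change when the library is scaled by 1 factor. Fold changes also varied with the length index described below, on which mcm5 lay lowest of the 6, at the 54.1 percentile. The part of length in these ratios was not tested. These ratios, and those of the RRM2 genes, pcna and rpa2 below, were chosen after their values were seen and are given without a test. How often such ratios do not overlap among all genes was not taken. The share of mcm4 in the summed TPM of mcm2 to mcm6 was 21.4, 21.9 and 22.2% under the label +/+ and 24.1, 24.3 and 25.5% under -/-, with no overlap. The share of mcm5 was 27.2, 26.5 and 26.2% against 25.8, 25.2 and 24.2%, lower without overlap, while the shares of mcm2, mcm3 and mcm6 overlapped. Shares within a library add to a fixed total, so a higher share of mcm4 lowers the others. The lower share of mcm5 is therefore not a separate difference. The ratio of mcm7 to the mean of mcm2 to mcm6 was 1.86, 2.13 and 2.38 against 2.52, 2.76 and 3.05. The level of mcm7 itself is uncertain relative to the other subunits: from deposited coverage the same ratio was 0.576, 0.604 and 0.708 against 0.729, 0.790 and 0.902, so the TPM values place mcm7 above the other subunits and the coverage places it below their mean. In the authors' deposited table, the mean normalized count was 3054 for mcm7 and between 3157 and 3665 for mcm2 to mcm6. With TPM and with coverage alike, the ratio of mcm7 to the other subunits did not overlap between the labels.

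The second copies of helicase genes were near 0. The gene mcm6l was listed at 0.0483, 0.0989 and 0.0626 TPM in replicates 1 to 3 under the label +/+ and 0.115, 0.102 and 0.129 TPM under -/-, and mcm3l at 0.416, 0.173 and 0.294 TPM in replicates 1 to 3 under the label +/+ and 0.351, 0.267 and 0.310 TPM under -/-. The RefSeq table lists MCM6m and MCM3m as synonyms of these copies and MCM6z and MCM3z as synonyms of mcm6 and mcm3; in Xenopus, maternal and zygotic forms of these subunits are known. At levels this low no fold change is given.

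The ribonucleotide reductase genes split. The large subunit gene rrm1 (ENSDARG00000014017.11, chromosome 21, 30772043 to 30787414, minus strand) stood at 69.4, 75.8 and 88.4 TPM in replicates 1 to 3 under the label +/+ and 97.6, 91.8 and 111 TPM under -/-, without overlap, and rose with a log2 fold change of 0.37 (SE 0.11, limma adjusted p = 0.0384). The small subunit gene RRM2 (ENSDARG00000078069.3, chromosome 19, 47564890 to 47571808, minus strand) stood at 114, 118 and 116 TPM in replicates 1 to 3 under the label +/+ and 160.4, 146 and 138 TPM under -/-, also without overlap, and rose with a log2 fold change of 0.35 (SE 0.08, limma adjusted p = 0.0179). Its counterpart rrm2l (ENSDARG00000020711.10, chromosome 20, 29492469 to 29499426, minus strand) stood at 75.6, 75.2 and 64.8 TPM in replicates 1 to 3 under the label +/+ and 67.6, 59.6 and 55.5 TPM under -/-. Here the libraries labelled -/- had the lower mean, with overlap through replicate 1 labelled -/- and replicate 3 labelled +/+, and a log2 fold change of -0.24 (SE 0.10, limma adjusted p = 0.0993). With median-rescaled TPM the limma adjusted p was 0.246 for rrm1, 0.459 for RRM2 and 0.0320 for rrm2l, so only rrm2l was called.

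The share of the chromosome 19 gene in the summed TPM of both RRM2 genes was 60.2, 61.0 and 64.1% under the label +/+ and 70.3, 71.0 and 71.4% under -/-. These values did not overlap, with an SD of 2.04 and 0.530 percentage points (n = 3 each). From coverage the shares were 60.7, 64.2 and 63.7% and 72.8, 72.7 and 73.1%. The handling of reads shared by both copies, or by mcm3 and mcm3l or mcm6 and mcm6l, is not stated in the labels or headers, and values of such copies are uncertain to that extent. The gene rrm2b (ENSDARG00000033367.7), which encodes the small subunit that p53 induces in other vertebrates, stood at 33.1, 30.6 and 31.9 TPM in replicates 1 to 3 under the label +/+ and 32.3, 30.2 and 32.2 TPM under -/-, with overlapping groups and a log2 fold change of -0.01 (adjusted p = 0.900 by limma).

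The sliding clamp and the single-strand binding protein did not follow the helicase. The gene pcna (ENSDARG00000054155.6, chromosome 10, 40821804 to 40826657, minus strand), the most abundant member, stood at 395, 388 and 377 TPM in replicates 1 to 3 under the label +/+ and 422, 382 and 379 TPM under -/-. Its groups overlapped, and its log2 fold change of 0.03 (SE 0.07, limma adjusted p = 0.771) stood against -0.22 (adjusted p = 0.164) with median-rescaled TPM, so its sign depended on the scaling. Per mean TPM of mcm2 to mcm6, pcna stood at 24.3, 24.0 and 18.2 under the label +/+ and 15.7, 18.8 and 13.3 under -/-. Replicate 2 labelled -/- lay above replicate 3 labelled +/+ in this ratio. On the length index described below, pcna lay at the 22.7 percentile and mcm2 to mcm6 between 54.1 and 85.1. The part of length in the ratio was not tested.

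The gene rpa2 (ENSDARG00000037188.8, chromosome 16, 4746588 to 4770233, minus strand) stood at 55.1, 52.2 and 48.2 TPM in replicates 1 to 3 under the label +/+ and 46.2, 46.2 and 43.8 TPM under -/-. Every library labelled -/- lay below every library labelled +/+, yet the log2 fold change of -0.19 (SE 0.08, limma adjusted p = 0.103) did not pass. Of the other RPA subunits, rpa1 had a log2 fold change of 0.11 (adjusted p = 0.254) and rpa3 of 0.00 (adjusted p = 0.975) by limma. The ratio of rpa2 to rpa1 was 0.883, 0.809 and 0.720 under the label +/+ and 0.651, 0.667 and 0.636 under -/-, without overlap. The ratio of rpa2 to rpa3 overlapped, with 1.57, 1.45 and 1.35 against 1.14, 1.27 and 1.41. On the length index described below, rpa2 lay at the 29.0 percentile. The part of length in both ratios was not tested.

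**Figure D2:**
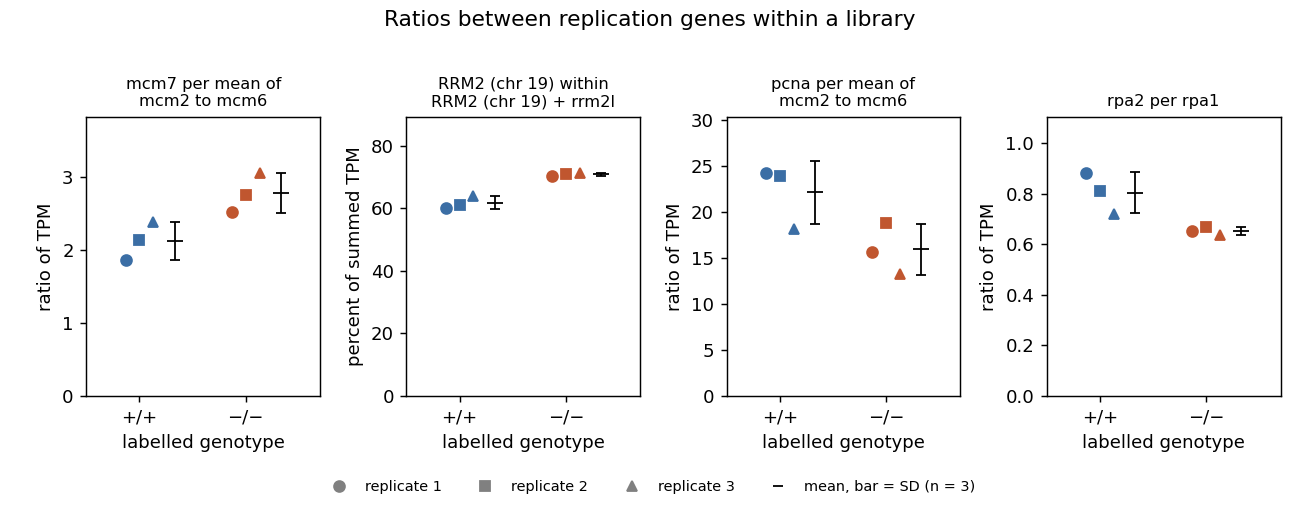
Ratios or shares of TPM (y axes, from 0) between replication genes within each library (points, shape by replicate) by labelled genotype (x axis), with the mean and SD (n = 3). The labels do not overlap for mcm7 per mean of mcm2 to mcm6, for the chromosome 19 share of both RRM2 genes or for rpa2 per rpa1, and overlap for pcna per mean of mcm2 to mcm6. The ratios were chosen after their values were seen.

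Of single genes compared over the 6 samples, 5 of the 11 members (mcm4, mcm7, rrm1, RRM2 and rpa2) had groups that did not overlap, 4 being higher under -/- and 1 lower. The background is high: the groups did not overlap for 55.8% of all tested genes, 39.5% higher and 16.3% lower. For each of those 5 genes p was 0.1 in an exact two-sided permutation test over samples, the smallest that 3 samples against 3 can give, and it was 0.2 for mcm2, mcm3, mcm5, mcm6 and rrm2l, and 0.8 for pcna. All these values are for TPM as deposited. With median-rescaled TPM the groups overlapped for RRM2 and no longer overlapped for rrm2l. The share of all tested genes without overlap after rescaling is not given.

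Which members were called depended on the scaling of libraries, except for mcm4 and mcm7, which were called under each scaling and unit tried. With median-rescaled TPM 2 members rose and 2 fell, where 22.0% of tested genes were called higher and 22.4% lower. These were mcm7 with a log2 fold change of 0.64 (adjusted p = 0.0125) and mcm4 with 0.43 (adjusted p = 0.0213), against rrm2l with -0.48 (adjusted p = 0.0320) and rpa2 with -0.43 (adjusted p = 0.0272) by limma. Values for mcm2, mcm3, mcm5, mcm6, rrm1 and RRM2 after rescaling lay between 0.11 and 0.24. With quantile scaling 4 members were called higher (mcm4, mcm7, rrm1 and RRM2) and 0 lower, where 20.5% and 20.8% of genes were. With FPKM the members were 4 and 1 (29.4% and 14.0% of genes), and with depth-scaled coverage 5 and 1 (31.4% and 9.33%). With no filter on low values 3 were called higher (16.4% of genes).

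The authors' deposited table, gives a comparison on normalized counts whose direction is not stated. In the authors' deposited table stim2a and stim2b have negative values, so its sign was taken as opposite to that used here. In the authors' deposited table, 4 of the 11 members had an adjusted p under 0.05, where 18.4% of its genes had that with a negative and 13.5% with a positive log2 fold change. They were mcm7 at -0.65 (SE 0.158, adjusted p = 8.36e-04), mcm4 at -0.48 (SE 0.133, adjusted p = 0.00398), rrm2l at 0.48 (SE 0.138, adjusted p = 0.00598) and rpa2 at 0.34 (SE 0.122, adjusted p = 0.0427). These are the same 4 genes that were called with median-rescaled TPM, and with the sign of the authors' deposited table turned all 11 members had the direction they have there. Both come from the same libraries, so they are not independent. How the authors' counts were normalized is not stated, and a scaling like the median gene ratio may be shared. In the authors' deposited table, pcna stood at 0.16 (SE 0.122, adjusted p = 0.473), rrm1 at -0.17 (SE 0.0967, adjusted p = 0.280) and RRM2 at -0.16 (SE 0.129, adjusted p = 0.509).

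**Figure D3:**
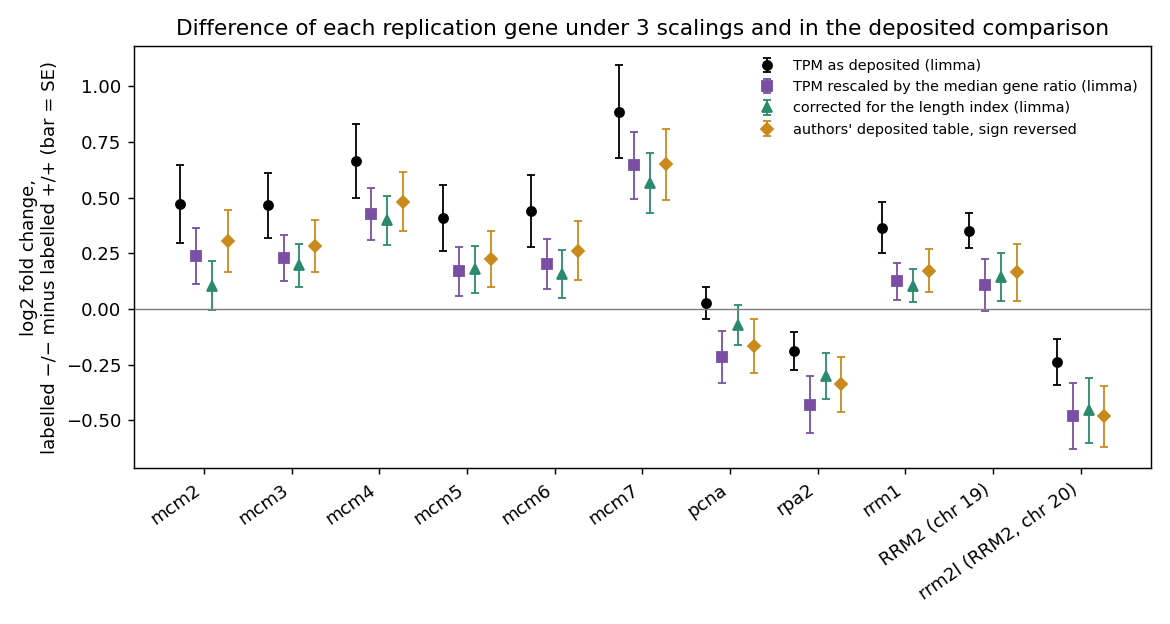
Log2 fold change, labelled -/- minus labelled +/+ (y axis, bars are SE), of the 11 tested replication genes (x axis) with TPM as deposited, with median-rescaled TPM, after correction for the length index, and in the authors' deposited table with its sign reversed. Values for mcm7 lie between 0.57 and 0.89, those for rrm2l between -0.48 and -0.24, and those for pcna on both sides of 0.

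The log2 fold changes varied with a length index, a stand-in for transcript length, which was not read itself. This index, the mean normalized count of the authors' deposited table divided by depth-scaled coverage, was computed for 20329 of the 20330 tested genes. Genes were ordered by this index and cut into 10 bins of near equal size. From the bin of lowest to that of highest index, the median log2 fold change went from 0.05 to 0.47. The 6 helicase subunits lay between the 54.1 and 85.1 percentiles of the index, pcna at 22.7 and rpa2 at 29.0. In the bin that holds mcm2 the median was 0.37, against 0.47 for mcm2 itself. Corrected for this trend, mcm7 had a log2 fold change of 0.57 (adjusted p = 0.0144), mcm4 of 0.40 (adjusted p = 0.0235), rrm2l of -0.45 (adjusted p = 0.0377) and rpa2 of -0.30 (adjusted p = 0.0480), and no other member was called. In that fit 20.2% of genes were called higher and 21.0% lower, and with the replicate block added the same 4 members were called (25.7% and 27.1% of genes). This correction was chosen after the data were seen, and the part of length in the members' difference was not tested beyond it. The index of mcm7 rests on its coverage, which differs from its TPM in its place among the subunits. Its corrected value is uncertain to that extent.

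**Figure D4:**
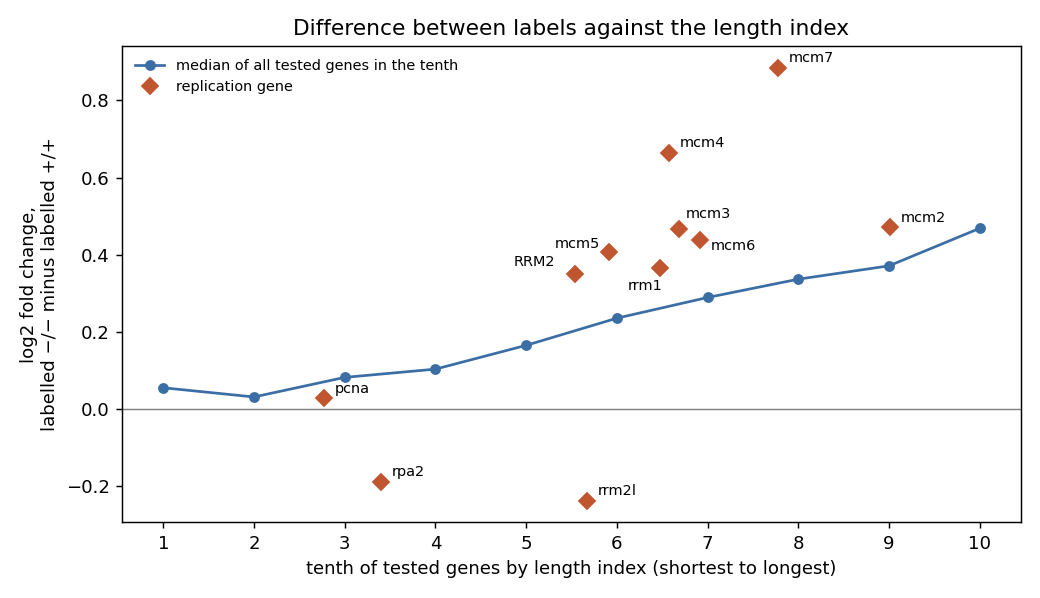
Median log2 fold change of the tested genes (line) in 10 bins of the length index from lowest to highest (x axis, marked shortest to longest), with the 11 replication genes (diamonds) at their place on the index and their log2 fold change (y axis), TPM as deposited. The line goes from 0.05 to 0.47; mcm4 and mcm7 lie above it, rpa2 and rrm2l below it, and pcna near it.

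Single libraries also decided calls. Without replicate 1 or without replicate 2 labelled +/+ no member was called by limma, in fits that called 3.02% and 2.14% of genes. Without replicate 1 or without replicate 3 labelled -/- only mcm7 and RRM2 were called (14.5% and 15.2% of genes called higher). Without replicate 3 labelled +/+ all 6 helicase subunits, rrm1 and RRM2 were called higher and rrm2l lower (39.9% and 7.52% of genes). Without replicate 2 labelled -/- the same 8 were called higher (31.2% of genes). With both replicate 3 libraries left out the 8 were called higher and rrm2l and rpa2 lower (41.4% and 9.06% of genes). The sign of no member other than pcna changed when a library was left out. With the replicate number as a block those 8 genes were called higher and rpa2 and rrm2l lower, in a fit that called 45.6% of genes higher and 13.3% lower. With the block, mcm2 had an adjusted p of 0.00526, mcm5 of 0.00809, mcm6 of 0.00806, rrm2l of 0.0194 and rpa2 of 0.0416. With the block and rescaling together, mcm2, mcm3, mcm4 and mcm7 were called higher and pcna, rrm2l and rpa2 lower (28.5% and 29.1% of genes).

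The wider replication machinery was read from lists of named genes. Of 22 tested genes that load and start the helicase, 9 rose and 0 fell by limma (30.8% and 8.76% of all tested genes). The median log2 fold change of these genes was 0.31, beside 0.22 for all tested genes. They were led by mcm10, a scaffold that helps start the helicase, at 1.49 ± 0.340 and 2.82 ± 0.380 TPM (adjusted p = 0.0179), and by the loading factor cdt1 at 2.89 ± 0.158 and 4.74 ± 0.794 TPM (SD, n = 3 each, labels +/+ and -/- in that order, adjusted p = 0.0197). The polymerase alpha anchor wdhd1 and dtl, which directs the destruction of CDT1, rose 1.65-fold and 1.56-fold. The count of 9 includes the helicase gene recql4 at 0.572, 0.683 and 0.895 TPM in replicates 1 to 3 under the label +/+ and 1.39, 1.04 and 1.35 TPM under -/-, which passed the filter on low values only through the libraries labelled -/-, so its call carries no weight. The partners that complete the active helicase were not called: cdc45 had a log2 fold change of 0.19, and gins1, gins2, gins3 and gins4 lay between -0.01 and 0.24. With median-rescaled TPM 6 of this list were called higher and 1 lower (22.0% and 22.4% of all tested genes). With the replicate block the counts were 12 and 0 (45.6% and 13.3%). Both counts of genes called higher include recql4, which carries no weight there either. The length correction gave counts of 5 and 1 (20.2% and 21.0% of all tested genes) and a list median of 0.12.

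Of 27 tested genes of polymerases, clamp loader and lagging strand, 11 rose and 1 fell (30.8% and 8.76% of all tested genes). The median log2 fold change of this list was 0.27. The catalytic and second subunits of the leading strand polymerase, pole and POLE2, stood at 2.64 ± 0.626 and 5.43 ± 1.08 TPM and at 4.59 ± 0.483 and 9.62 ± 1.68 TPM (adjusted p = 0.0151 and 0.00870). The primase polymerase gene pola1 stood at 7.80 ± 1.45 and 13.4 ± 2.26 TPM and rnaseh2a, a subunit of the RNase that removes RNA from DNA, at 27.4 ± 1.44 and 35.8 ± 2.13 TPM (SD, n = 3 each). The gene called lower was fen1, the flap nuclease of lagging strand joining, at 48.3, 47.0 and 47.4 TPM in replicates 1 to 3 under the label +/+ and 25.1, 23.9 and 22.9 TPM under -/-. Its call rests on TPM: from depth-scaled coverage fen1 stood at 29.8, 28.1 and 27.8 under the label +/+ and 31.3, 29.6 and 28.6 under -/-, overlapping, and the authors' deposited table gave 0.13 (SE 0.126, adjusted p = 0.618). With median-rescaled TPM 5 of this list were higher and 3 lower (22.0% and 22.4% of all tested genes). With the replicate block the counts were 17 and 1 (45.6% and 13.3%). Counts after the length correction were 6 and 1 (20.2% and 21.0%), with a list median of 0.00.

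Of 17 tested genes of nucleotide supply, 3 rose and 0 fell (30.8% and 8.76% of all tested genes). The median log2 fold change of this list was 0.03, below that of all genes. The thymidine kinase gene tk1 stood at 18.3 ± 2.15 and 25.4 ± 1.55 TPM, cad, which starts pyrimidine synthesis, at 14.4 ± 2.86 and 24.5 ± 5.14 TPM, and impdh1a, a guanine nucleotide enzyme, at 9.01 ± 1.61 and 14.4 ± 0.820 TPM (SD, n = 3 each). For umps and shmt1 the log2 fold changes were 0.42 (adjusted p = 0.0575) and 0.31 (adjusted p = 0.0685) by limma. With the replicate block both were called higher (adjusted p = 0.00731 and 0.0185), and the counts for the list were 7 and 1 (45.6% and 13.3% of all tested genes). With median-rescaled TPM 3 of this list were called higher and 6 lower (22.0% and 22.4% of all tested genes). Among those called lower was the dUTPase gene dut with a log2 fold change of -0.35 (adjusted p = 0.0262). Counts for the list after the length correction were 3 and 5 (20.2% and 21.0% of all tested genes), with a list median of -0.12.

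**Figure D5:**
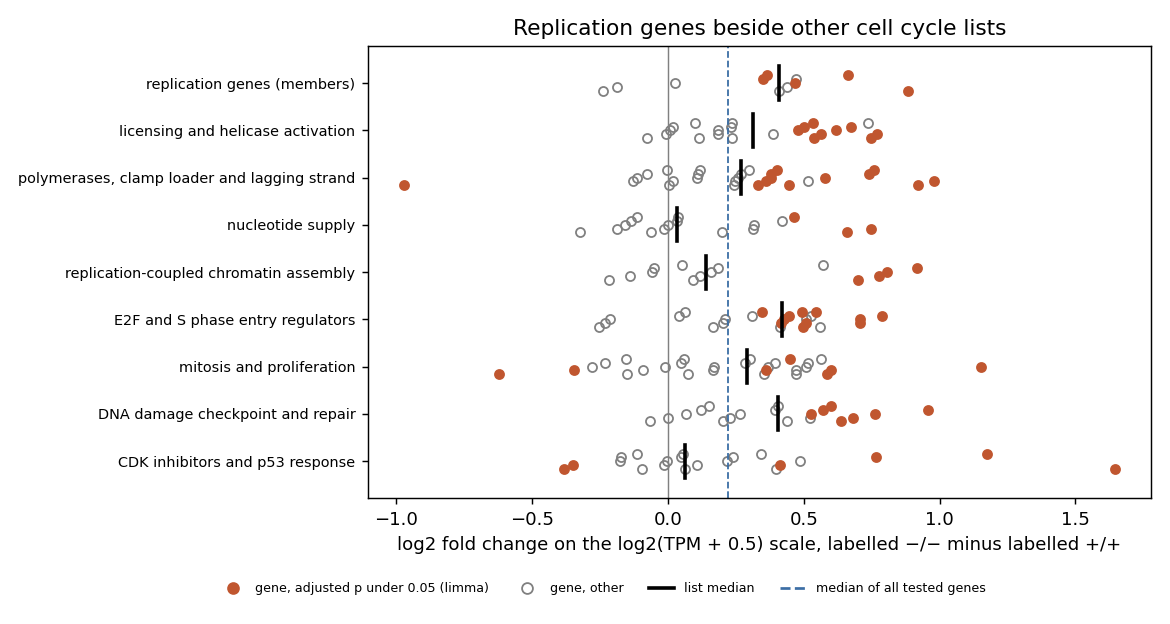
Log2 fold change of each tested gene (points, filled where the adjusted p is under 0.05 by limma) in the replication genes and 8 other lists (y axis), TPM as deposited (x axis), with list medians (bars) and the median of all tested genes (dashed, 0.22). List medians run from 0.03 for nucleotide supply to 0.42 for E2F and S phase entry regulators, and the lowest single point is fen1.

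Markers of tissues were counted in the same way, and the part of these tissues in the members' difference was not tested. With deposited TPM, 30.8% of all tested genes were called higher and 8.76% lower by limma. Of 16 markers of differentiated neurons 14 rose and 0 fell, their summed level being 528 to 740.4 TPM under +/+ and 888 to 1321 TPM under -/-. Of 17 neural progenitor markers 3 rose and 1 fell (sums 942 to 998 TPM under +/+ and 959 to 1099 TPM under -/-), and of 13 markers of the retinal margin 5 rose and 1 fell (sums 105 to 126 TPM under +/+ and 131 to 169 TPM under -/-). The retinal count includes rx3, which passed the filter on low values only through the libraries labelled -/-, so its call carries no weight. The retinal counts of genes called higher with the replicate block and with median-rescaled TPM, given below, include rx3 as well. The counts were 2 and 1 of 14 for blood (sums 425 to 594 TPM under +/+ and 358 to 519 TPM under -/-), 1 and 0 of 7 for thymus and T cells (sums 18.0 to 24.1 TPM under +/+ and 29.0 to 45.6 TPM under -/-), and 5 and 1 of 10 for intestine (sums 5298 to 6532 TPM under +/+ and 5189.5 to 6084 TPM under -/-). Of the matched markers in these lists only the T cell gene cd8a was listed at 0 in all 6 libraries. With the replicate block the genes called higher and lower were 15 and 0 for neurons, 10 and 1 for neural progenitors and 9 and 1 for the retinal margin. They were 3 and 4 for blood, 2 and 0 for T cells, and 6 and 1 for intestine (45.6% and 13.3% of all tested genes). With median-rescaled TPM the counts were 14 and 1 for neurons, 3 and 3 for neural progenitors and 5 and 2 for the retinal margin. They were 2 and 7 for blood, 1 and 0 for T cells, and 3 and 1 for intestine (22.0% and 22.4% of all tested genes).

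Skin and muscle markers, which check the whole-larva label, were abundant. Of 12 keratinocyte markers 1 rose and 3 fell (sums 18488 to 20494 TPM under +/+ and 15419 to 16636 TPM under -/-), and of 8 skeletal muscle markers 2 rose and 0 fell (sums 28048 to 30678 TPM under +/+ and 30659 to 33068 TPM under -/-). With the replicate block the counts were 3 and 4 for keratinocytes and 5 and 1 for muscle. With median-rescaled TPM they were 1 and 4 for keratinocytes and 0 and 0 for muscle. The shares of all tested genes called in each fit are those given for the other tissues. None of 7 germ cell markers passed the filter.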

How the data were processed

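Gene abundance tables of 6 libraries were used, per the labels 3 for each genotype, from polyadenylated RNA in stranded libraries sequenced as paired reads of 75 bases. Per the file headers each table gives coverage, a signal averaged over a gene's bases, and FPKM. It also gives TPM, which in every deposited table totals 1000000. Tools listed in the submitters' processing notes are DESeq2 (1.16.1), StringTie (1.3.3b) and STAR (2.5.3a), with hg38 and danRer11 as builds, and no role is stated for any. Coordinates are those of the deposited tables. A further deposited table holds the authors' own test, per the file headers with mean normalized counts as signal, log2 fold changes with standard errors, a test score and p-values. In it, adjustment method and direction are not stated.

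Rows of 1 gene were summed. Symbols came from a table of Ensembl identifiers (29201 of 32520 genes); for 11061 upper-case family symbols the RefSeq symbol of assembly GRCz12tu on the same chromosome was used. No counts per sample were in the files used, so limma 3.58.1 in R 4.3.3 (eBayes with a trend) was run on log2(TPM + 0.5) for genes reaching 1 TPM in 3 or more libraries. Adjusted p-values are Benjamini-Hochberg over all tested genes, with calls under 0.05. Fold changes on this scale understate the change of low genes. The fit was tested on simulated data. Tables were handled in pandas 2.3.3 and SciPy 1.17.1 under Python 3.11.15.

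Members and the 18 lists (294 of 307 entries matched) were chosen with earlier results of these data known. Genes named from a list were its 3 tested entries with the smallest p, or 5 in the 3 replication lists, any entry at 0 throughout a label, near copies of members, and the 5 genes closest in profile; other genes named were chosen after their values were seen. Same-numbered samples correlated in their deviations from group means at 0.253, 0.187 and 0.478 across genes, which passes a rule asking for over 0.1 in every pair. The deviations sum to 0 within each label, so these 3 values are not independent of each other. No label ties a number to a clutch or day, so this is a hint in the values alone, and replicate 1 labelled +/+ correlated more (0.289) with replicate 2 labelled -/-.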

Additional observations from a re-analysis of the deposited data

How the results depend on the processing

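With TPM as deposited, 5 members were called higher and 0 lower (30.8% and 8.76% of tested genes), and 8046 genes in all. The members called higher numbered 3 with no filter on low values (16.4% of genes called higher) and 2 after rescaling (22.0%). They numbered 8 with the replicate block (45.6%, 11960 genes called in all). With correction for the length index they numbered 2, without the replicate block (20.2%) and with it (25.7%). With both replicate 3 libraries left out they numbered 8 (41.4%). Members called lower numbered 2 after rescaling (22.4% of genes called lower), 1 with FPKM (14.0%) and 2 with the replicate block (13.3%). They numbered 3 with the replicate block and rescaling together (29.1%) and 1 with coverage in place of TPM (9.33%). With both replicate 3 libraries left out 2 were called lower (9.06%). With the length correction 2 were called lower, without the block (21.0%) and with it (27.1%). A mean of at least 5 TPM left 5238 called genes, fewer being tested. Leaving out 1 library at a time gave 430 to 9525 called genes, 0 to 8 members higher, 0 to 1 lower, and a median log2 fold change of the members relative to all tested genes of 0.16 to 0.30, against 0.19 with all 6. Only pcna changed sign: its log2 fold change was -0.22 after rescaling (with or without the block), -0.073 with FPKM, -0.071 with the length correction (with or without the block), and -0.023 to 0.056 over libraries left out. Over 13 genes (the 11 members, stim2a and stim2b) and 20 settings, 183 of 250 log2 fold changes kept their direction and side of the threshold, 33 lost a call, 28 gained one and 6 turned sign. The cause of these changes was not tested. The tally includes stim2a and stim2b, which pass the filter on low values only through the libraries labelled -/-, so their part in it carries no weight. Coverage, length correction and leaving out both replicate 3 libraries were chosen after seeing the data.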

Other observations

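Calls among regulators of entry into S phase depended on the scaling. Of 24 tested, 11 rose and 0 fell by limma with deposited TPM, where 30.8% and 8.76% of all tested genes did. The counts were 4 and 3 with median-rescaled TPM (22.0% and 22.4% of all genes) and 5 and 5 with the length correction (20.2% and 21.0%). With the replicate block they were 15 and 2 (45.6% and 13.3%). Their median log2 fold change was 0.42, beside 0.22 for all tested genes. The transcription factor gene e2f1 stood at 2.93 ± 0.325 and 5.11 ± 0.760 TPM, mycb at 19.8 ± 2.93 and 34.8 ± 6.70 TPM, and rb1, the gene of an E2F repressor, at 5.56 ± 1.37 and 9.32 ± 1.54 TPM (SD, n = 3 each, labels +/+ and -/- in that order). Of 14 genes that assemble chromatin behind the fork 4 rose and 0 fell (4 and 3 after rescaling, median 0.14 before it), led by the histone chaperone asf1bb at 10.3 ± 1.72 and 17.0 ± 1.54 TPM, uhrf1, which guides maintenance methylation, at 8.46 ± 1.53 and 14.9 ± 2.45 TPM, and the DNA methyltransferase dnmt1 at 12.7 ± 2.74 and 24.5 ± 5.46 TPM.

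Genes of mitosis were called in both directions. Of 28 tested, 5 rose and 2 fell, and after rescaling 2 and 7, with a median log2 fold change of 0.29 before it. The spindle assembly factor tpx2 stood at 26.9 ± 4.87 and 60.1 ± 6.14 TPM and the kinetochore motor cenpe at 15.6 ± 2.53 and 23.8 ± 2.37 TPM, while cdc20, an activator of the anaphase-promoting complex, stood at 40.9 ± 3.53 and 26.5 ± 3.65 TPM (SD, n = 3 each). Genes of this list not called with deposited TPM include mki67 at a log2 fold change of 0.06 (limma adjusted p = 0.609). They also include top2a at 0.47 (limma adjusted p = 0.105) and cdk1 at -0.15 (limma adjusted p = 0.119). After rescaling cdk1 was called lower (limma adjusted p = 0.0181). Differences of cdc20 and tpx2 depended on the unit: from depth-scaled coverage the log2 fold change of cdc20 was -0.05 (adjusted p = 0.761), against -0.62 in TPM, and that of tpx2 was 0.53 (adjusted p = 0.0318), against 1.15, by limma. Of 19 genes of the damage checkpoint and repair 7 rose and 0 fell, and 7 and 0 after rescaling (median 0.41 before it), led by the mismatch repair gene msh6 at 6.35 ± 1.46 and 12.7 ± 2.09 TPM and the Fanconi genes fanci and fancd2 at 4.30 ± 0.488 and 6.61 ± 0.150 TPM and 5.06 ± 0.712 and 8.15 ± 1.06 TPM. Of 21 CDK inhibitors and p53 response genes 4 rose and 2 fell, and 3 and 5 after rescaling (median 0.06 before it). The stress gene gadd45ba stood at 23.3 ± 4.45 and 53.8 ± 15.3 TPM, the antiproliferative gene btg1 at 53.3 ± 11.2 and 90.7 ± 16.7 TPM, and the CDK inhibitor cdkn1ca at 26.5 ± 0.282 and 20.3 ± 1.86 TPM. With the replicate block the genes called higher and lower were 6 and 0 for chromatin assembly and 15 and 4 for mitosis. They were 12 and 0 for damage and repair, and 7 and 2 for CDK inhibitors. The length correction gave 4 and 1 for chromatin assembly and 1 and 8 for mitosis. It gave 6 and 1 for damage and repair, with a median log2 fold change of 0.03, and 4 and 3 for CDK inhibitors. In that fit 20.2% and 21.0% of all tested genes were called, and their median was -0.01. Of all tested genes, 30.8% and 8.76% were called higher and lower with deposited TPM, and 22.0% and 22.4% after rescaling. With the replicate block these shares were 45.6% and 13.3%.

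Over the 6 libraries, the tested genes with a symbol whose log2 profile was most like the mean profile of the members were sdhb, wasa, cltcl1, clns1a and ggctb, with Pearson r from 0.998 to 0.999. These values share libraries and scaling and come from the best of 20330 genes, so they are a description.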
